A study of Homo sapiens with 23 samples.

Results

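Katanin is an enzyme that cuts microtubules, and 3 genes of its family were followed here through squamous carcinoma xenografts, KATNA1, KATNAL1 and KATNBL1. They were taken by gene symbol from a table of 27589 genes, and all 3 were found and passed the filter of a mean normalized value of at least 10. They were named with the knockout minus wild-type difference in these same tumours already known, so for that contrast their values, differences and standard errors are a description and carry no test. RNA came from tumours of SCC-13, an established human line of cutaneous squamous cell carcinoma, injected with Matrigel under the skin of NCG mice, which lack functional lymphocytes, and collected on day 26. The wild-type (WT) cells had intact human Flower (hFWE, gene symbol CACFD1) and gave 12 tumours, 4 from each of the lines 5B2, 6C9 and 6C10. The knockout (KO) cells lacked hFWE by their label and gave 11 tumours, 3 from line 2F7 and 4 from each of the lines 2B8 and 1G10. Both genotypes shared the parent cells, the host strain and the harvest day. The lines are known by code only and how they were made is not stated by the labels. Genotype belonged to the line, so a comparison of KO with WT rests on 3 lines of each genotype. Nothing in the labels ties a tumour to a mouse of its own. The p-values and standard errors therefore reflect only how much these tumours vary, and not how much further lines of a genotype would. Tumours are called by line and specimen number.

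Katanin pulls tubulin subunits out of the wall of a microtubule with the energy of ATP, and so breaks it into shorter pieces or releases it from where it was anchored. KATNA1 encodes the catalytic subunit, an ATPase of the AAA class. KATNAL1 encodes a close relative of the catalytic subunit that also severs microtubules, and KATNBL1 a smaller protein of the family that binds the catalytic ones. Severing takes part in spindle assembly, cilia and cell migration, and in keratinocytes that leave the basal layer the microtubules detach from the centrosome and gather at the cell cortex.

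The stretches just upstream of the annotated starts are printed because the gene-level value of KATNAL1 sums transcripts from more than 1 start, while KATNA1 and KATNBL1 each have a single start in the same RefSeq table. The letters run 5′ to 3′ on the gene's strand, cover the 140 bases before each start and come from RefSeq on GRCh38.p14. They lie on the minus strand at chr6:149648715-149648854 for KATNA1, at chr13:30307552-30307691 and chr13:30307012-30307151 for the first and second start of KATNAL1, and at chr15:34210097-34210236 for KATNBL1. Capitals mark exact matches to a short motif on either strand.
KATNA1: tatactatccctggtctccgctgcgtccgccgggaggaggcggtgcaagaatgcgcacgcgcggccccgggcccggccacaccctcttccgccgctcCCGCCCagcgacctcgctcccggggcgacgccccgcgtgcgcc
KATNAL1 first start: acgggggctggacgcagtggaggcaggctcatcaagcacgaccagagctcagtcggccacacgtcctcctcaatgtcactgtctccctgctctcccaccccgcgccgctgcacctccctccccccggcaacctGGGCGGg
KATNAL1 second start: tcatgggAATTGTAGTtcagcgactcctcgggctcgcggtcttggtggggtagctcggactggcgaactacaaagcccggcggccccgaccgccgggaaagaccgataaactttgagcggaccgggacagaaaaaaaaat
KATNBL1: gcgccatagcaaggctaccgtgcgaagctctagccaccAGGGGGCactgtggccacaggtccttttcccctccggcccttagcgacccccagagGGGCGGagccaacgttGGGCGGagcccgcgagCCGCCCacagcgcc
The motifs were chosen after these promoters had been seen and were searched on both strands in windows of 300 bases, 250 before and 50 after each start. The GC box, GGGCGG, was in 45.0% of 35116 windows of the same length, the CTCF core AGGGGGC in 14.4%, the ETS site CCGGAAGT in 4.14%, and ACTACAATT, part of the ZNF143 and THAP11 site, in 0.336%. KATNBL1 carried 3 GC boxes and the CTCF core, KATNA1 a single GC box, and the first KATNAL1 start a GC box that ends 2 bases before it. The second KATNAL1 start carried ACTACAATT on the other strand, 133 to 125 bases before it. The marked matches do not overlap one another. Outside the printed stretches, KATNA1 had the ETS site after its start, both KATNAL1 windows had the CTCF core, and the first of them had another GC box. The remaining motifs had no match in the 4 windows, which says only that these letters are not there. They were the NF-Y box CCAAT (34.6% of all windows), the TATA box TATAAA (11.5%), the E-box CACGTG (7.26%), the AP-1 site TGACTCA (4.95%), the NRF1 site GCGCATGCG (1.92%), the cAMP response element TGACGTCA (1.85%) and the E2F site TTTGGCGC (0.652%). A match is a description of letters and was not tested for binding. The deposited values do not separate the 2 KATNAL1 starts.

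Estimated assigned reads were 13082214 to 22093213 in 21 libraries, and 2 WT libraries of line 6C9 were shallow, specimen 5532 with 7011069 and specimen 5533 with 2037751. Specimen 5533 stood apart, its correlation with another library having a median of 0.85 where each of the others reached at least 0.948, and 6.21% of its signal in mitochondrial transcripts against 1.39% to 3.50%. All 8 keratinocyte markers (KRT5, KRT14, KRT6A, KRT17, TP63, SFN, DSG3 and PERP) were detected in every tumour. CACFD1, the gene named in the genotype label, was at 373 ± 47.1 in WT (SD, n = 12) and 276 ± 58.9 (SD, n = 11) in KO tumours. Its transcript was thus present under the KO label and lower on average, though not in every line. The line means were 331.2 to 403.1 in WT. In the KO lines they were 342.2 ± 31.6 in 2F7 (SD, n = 3), within those of WT, and below them at 265.1 ± 44.1 in 2B8 and 237.2 ± 49.0 in 1G10 (SD, n = 4 each). Values are the authors' normalized read abundances, which do not correct for gene length.

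KATNAL1, the catalytic-like member, was the one whose level differed most between the genotypes. It lies at chr13:30202630-30307551 on the minus strand (hg38, ENSG00000102781) and has 8105 bases of exon. In the WT lines the normalized values were 95.5, 77.8, 62.4 and 74.9 in 5B2, 93.3, 79.0, 64.4 and 73.1 in 6C9, and 86.7, 108, 80.7 and 93.1 in 6C10. In the KO lines they were 108, 103 and 119 in 2F7, 108, 118, 139 and 132 in 2B8, and 103, 103, 104 and 184 in 1G10. Every KO tumour lay above the WT median of 79.9, and 11 of 12 WT tumours lay below the lowest KO tumour at 102.5. The exception was WT tumour 5535 of line 6C10 at 108.2. These positions belong to the contrast that chose the gene, and how many other genes separate as far by tumour was not counted. The highest value of all, 184.1, was that of 5549 in line 1G10, whose other 3 tumours lay between 102.8 and 103.5.

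The KATNAL1 mean was 82.4 ± 13.5 in WT (SD, n = 12) and 120.0 ± 24.6 (SD, n = 11) in KO tumours, 1.46 times as high. The fitted difference, KO minus WT on the log2(value + 1) scale, was 0.53 with SE 0.11, and 10.3% of the 16063 genes tested had a larger one in either direction. Each KO line lay above the mean of the WT lines, by 0.42 (SE 0.18) in 2F7, 0.60 (SE 0.16) in 2B8 and 0.55 (SE 0.16) in 1G10. Without tumour 5549 the difference was 0.47, the KO mean 113.6 ± 13.1 (SD, n = 10) and the mean of line 1G10 103.2 ± 0.355 (SD, n = 3). Because these values chose the gene, no p is given. Over all genes, limma with Benjamini-Hochberg adjustment called 1 of 16063 (0.00623%) for this contrast, and the KO line means lay all above or all below the WT line means in 18.6% of genes, KATNAL1 (above) and KATNA1 (below) among them. The reads behind the value were few, 74 to 236 in the 21 deeper libraries, 33 in 5532 and 8 in 5533, which covers counting error only. In bulk tumours more cells that express a gene and more RNA per cell cannot be told apart.

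**Figure D1:**
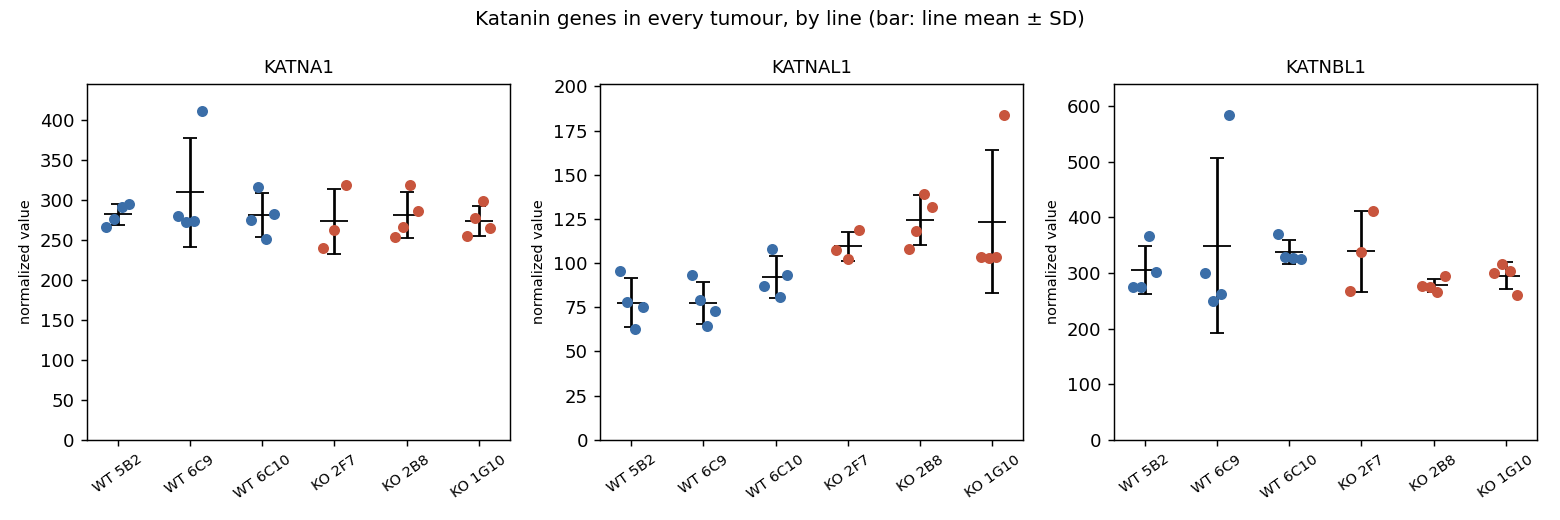
Normalized value (vertical axes, starting at 0) of KATNA1, KATNAL1 and KATNBL1 in every tumour, by line, with WT lines in blue and KO lines in red; each point is a tumour and bars are the line mean ± SD. KATNAL1 is at 77.4 to 92.2 in the WT line means and 109.6 to 124.4 in the KO line means, and the single high points of KATNA1 and KATNBL1 are WT tumour 5533.

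KATNA1, the catalytic subunit, had line means of 273 to 281 in the KO lines and 281 to 309 in the WT lines. It lies at chr6:149594873-149648972 on the minus strand (ENSG00000186625) with 2308 bases of exon. Its WT values were 250.7 at the lowest, 278.2 at the median and 411.1 at the highest, and its KO values were 239.1, 265.5 and 318.6. The groups overlapped almost wholly, and the highest value was that of the shallow tumour 5533, where it rested on 45 reads. The mean was 291 ± 41.2 in WT (SD, n = 12) and 276 ± 26.4 (SD, n = 11) in KO tumours, and 279.8 ± 16.9 (SD, n = 11) in WT without 5533. The log2 difference was -0.07 with SE 0.08, and 78.1% of genes had a larger one. Within lines KATNA1 varied little from tumour to tumour. Its SD on the log2 scale over the 22 tumours without 5533 was 0.125, against a median of 0.268 over the genes tested, and 92.6% of genes varied more. An exon of KATNA1 shares 206 bases with RPS18P9, a ribosomal protein pseudogene on the opposite strand, which was at 156 ± 87.9 in WT (SD, n = 12) and 134 ± 26.7 (SD, n = 11) in KO tumours. RPS18P9 was also highest in 5533, at 394.9, against at most 245.0 elsewhere. The sources used here do not say whether strand was used in counting, so reads of the pair may be mixed and KATNA1 is uncertain to that degree.

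KATNBL1, which binds the catalytic proteins, likewise overlapped between the genotypes. It lies at chr15:34140674-34210096 on the minus strand (ENSG00000134152) with 7311 bases of exon. Its WT values were 249.3 at the lowest, 313.0 at the median and 584.7 at the highest, and its KO values were 259.7, 294.5 and 411.2. The highest WT value was again that of 5533, from 64 reads. The mean was 330 ± 88.7 in WT (SD, n = 12) and 301 ± 43.9 (SD, n = 11) in KO tumours, and without 5533 the WT mean was 307.3 ± 40.2 (SD, n = 11). The log2 difference was -0.11 with SE 0.11, and 65.7% of genes had a larger one. In 2F7 the 3 tumours ran from 266.6 to 411.2, while the 4 tumours of 2B8 stayed between 265.6 and 294.5. A processed copy of the gene on chromosome 6, KATNBL1P6, was at 54.3 ± 23.1 in WT (SD, n = 12) and 57.8 ± 17.5 (SD, n = 11) in KO tumours, so reads could be split between gene and copy and the KATNBL1 level is uncertain.

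Set against each other within a tumour, KATNAL1 and KATNA1 differed in proportion between the genotypes, with some overlap. The ratio of their normalized values was 0.1778 at the lowest, 0.3027 at the median and 0.3588 at the highest in WT tumours, and 0.3462, 0.4261 and 0.6944 in KO tumours. The overlap lay between WT tumour 5526, the highest of its genotype, and KO tumour 5548, the lowest of its own. The mean ratio was 0.288 ± 0.0564 in WT (SD, n = 12) and 0.437 ± 0.0932 (SD, n = 11) in KO tumours. The ratio uses the KATNAL1 values that chose the gene and carries no test. The ratio of KATNAL1 to KATNBL1 was 0.262 ± 0.0652 in WT (SD, n = 12) and 0.410 ± 0.121 (SD, n = 11) in KO tumours. The ratio of KATNBL1 to KATNA1 overlapped almost wholly, at 1.13 ± 0.166 (SD, n = 12) and 1.09 ± 0.135 (SD, n = 11).

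**Figure D2:**
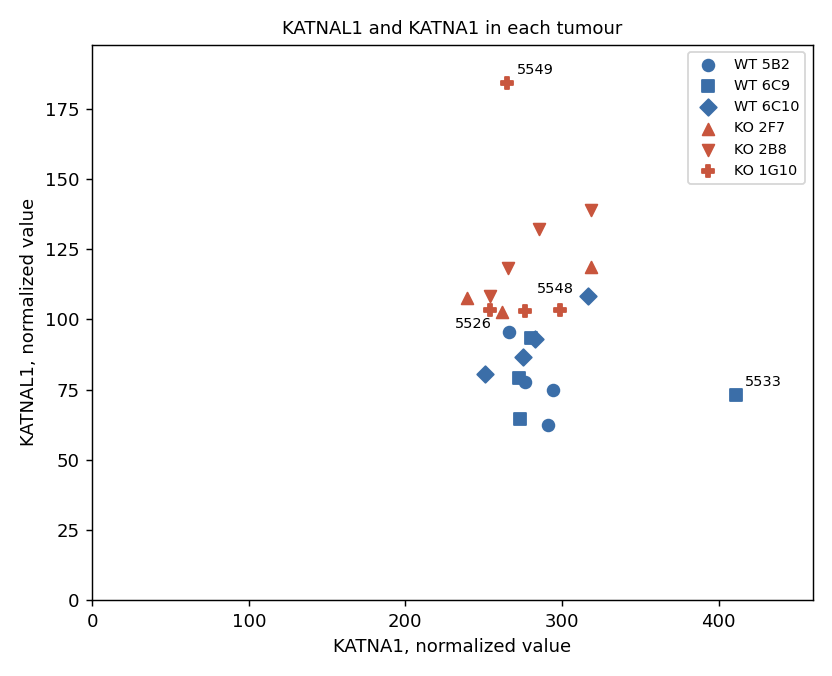
KATNAL1 (vertical axis) against KATNA1 (horizontal axis), both as normalized values starting at 0, with 1 point per tumour, WT lines in blue and KO lines in red and a symbol for each line. KO tumours lie above most WT tumours at like KATNA1 levels, with 5549 highest at 184.1 for KATNAL1, and WT tumour 5533 lies to the far right at 411.1 for KATNA1.

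Per kilobase of exon the levels could be ordered across the family, approximately. The length used was that of all annotated exons of a gene together, and which transcripts the tumours made is not known here. The KATNA1 level may also hold reads of RPS18P9. In WT tumours KATNA1 was at 126 ± 17.8, KATNBL1 at 45.2 ± 12.1, KATNIP at 35.3 ± 8.99, KATNAL1 at 10.2 ± 1.66 and KATNAL2 at 1.39 ± 1.08 (SD, n = 12). In KO tumours the same genes were at 120 ± 11.5, 41.1 ± 6.00, 37.5 ± 5.46, 14.8 ± 3.04 and 1.18 ± 0.920 (SD, n = 11). KATNBL1 and KATNIP lay within their spread of each other, and the other neighbours were further apart than their SDs. KATNAL1 stayed below KATNA1 in both genotypes. Its share of the summed KATNA1 and KATNAL1 level per kilobase was 7.56% ± 1.39 in WT (SD, n = 12) and 11.0% ± 2.01 (SD, n = 11) in KO tumours, with the lowest KO tumour at 8.97% and the highest WT tumour at 9.27%. KATNIP, which encodes a katanin-interacting protein of the base of cilia, was at 346 ± 87.9 in WT (SD, n = 12) and 367 ± 53.4 in KO tumours (SD, n = 11), with a log2 difference of 0.13 (SE 0.16). That difference rested on 5533, where KATNIP had 14 reads. It was 0.01 without that tumour, with a WT mean of 365.3 ± 57.8 (SD, n = 11), and turned to -0.04 without both shallow libraries and to -0.02 without line 6C9. KATNAL2, another catalytic-like gene, rested on 1 to 17 reads per tumour and did not pass the filter.

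**Figure D3:**
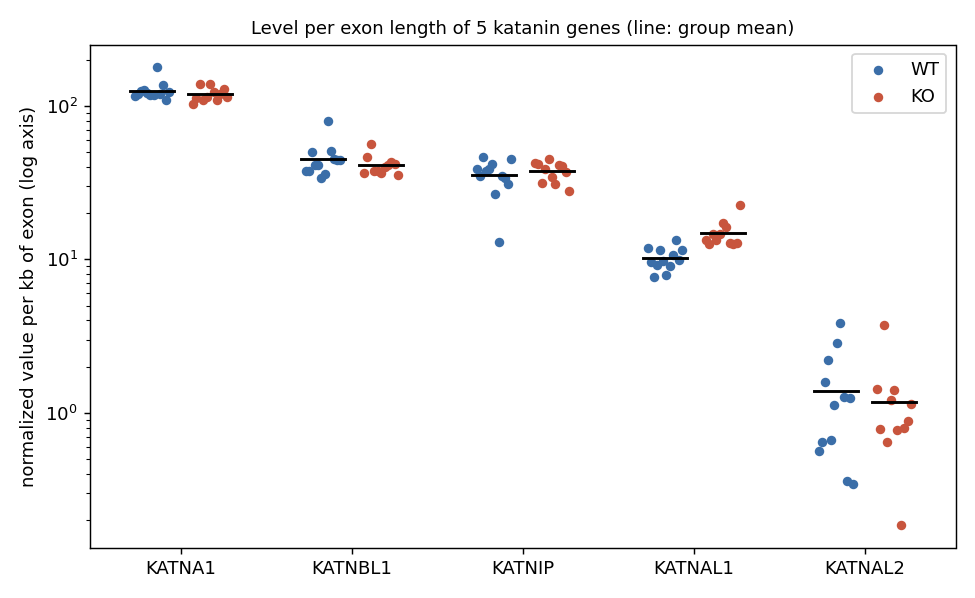
Normalized value per kilobase of exon (vertical log axis) of 5 katanin genes in each tumour, WT in blue and KO in red, with a line at the group mean. KATNA1 is the highest, the WT mean of KATNAL1 lies more than a decade below that of KATNA1, and KATNAL2 is near the limit of detection.

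Differences among lines of the same genotype do not involve the contrast that chose the genes and were tested for each member. Among the WT lines the line means of log2(value + 1) spanned 0.12 for KATNA1, 0.25 for KATNAL1 and 0.16 for KATNBL1, and limma's F test with Benjamini-Hochberg adjustment gave adjusted p = 0.779, 0.601 and 0.837. Among the KO lines they spanned 0.05, 0.18 and 0.26, with adjusted p = 1 for each. None of the 3 passed in either genotype, and none had an unadjusted p under 0.05, the lowest being 0.343 for KATNAL1 among the WT lines. The shallow tumour 5533 of line 6C9 is part of these values. WT and KO lines shared a residual spread in the fit, so 5533 also entered the KO tests. With 5533 the SD within lines on the log2 scale was 0.172 for KATNA1, 0.248 for KATNAL1 and 0.283 for KATNBL1. Without that tumour it was 0.125, 0.255 and 0.164. The KO tests therefore do not show that the KO lines are alike. Without 5533 the mean normalized KATNBL1 value of 6C9 fell from 349.1 ± 158 (SD, n = 4) to 270.6 ± 26.3 (SD, n = 3). The means of 5B2 and 6C10 were 304.7 ± 43.4 and 337.6 ± 21.4 (SD, n = 4 each). Adjusted p of the F test among WT lines without 5533 was 0.982 for KATNA1, 0.726 for KATNAL1 and 0.521 for KATNBL1. Among KO lines, likewise without 5533, the F test gave adjusted p = 0.983, 0.943 and 0.824. The test called 1 of 16063 genes (0.00623%) among WT lines and 0 (0%) among KO lines, with 1652 and 356 genes at an unadjusted p under 0.05.

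The proportions between members were also compared among lines, by exact permutation of the tumours of a genotype over its lines, with 34650 arrangements in WT and 11550 in KO. The log2 ratio of KATNAL1 to KATNA1 averaged -1.86 ± 0.31 in 5B2, -1.97 ± 0.39 in 6C9 and -1.60 ± 0.05 in 6C10 (SD, n = 4 each), with exact permutation p = 0.226. In the KO lines it averaged -1.30 ± 0.14 in 2F7 (SD, n = 3), -1.17 ± 0.05 in 2B8 and -1.19 ± 0.45 in 1G10 (SD, n = 4 each), with exact permutation p = 0.900. The ratio of KATNBL1 to KATNA1 spanned the KO lines from -0.01 in 2B8 to 0.30 in 2F7, with the lowest p of the 6 ratio tests, exact permutation p = 0.0632 and adjusted p = 0.379. No ratio passed after adjustment over the 6. The KO tests moved with 5549, without which the adjusted p was 0.1133 for each of the 3 KO ratios, by exact permutation, against 0.900 with it for KATNAL1 to KATNA1.

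Across tumours, with the mean of each line removed, KATNA1 and KATNBL1 had the highest r of the 12 relations computed, and it did not pass adjustment. Pearson's r was 0.782 and Spearman's rho 0.629 over 23 tumours, with permutation p = 0.00985 (adjusted p = 0.118) and permutation p = 0.0108 (adjusted p = 0.0650). Without 5533 and 5540, the tumours farthest from the KATNA1 median, r was 0.510, and without 5533 alone it was 0.497. KATNAL1 had r = 0.0915 with KATNA1 (permutation p = 0.682, adjusted 0.682) and r = -0.233 with KATNBL1 (permutation p = 0.314, adjusted 0.376). KATNAL1 had r = 0.619 (permutation p = 0.0816, adjusted 0.143) and rho = 0.484 (permutation p = 0.0648, adjusted 0.139) with the mean log2 level of 18 proliferation genes. That r was 0.137 without 5549, 0.818 without 5532 and 0.575 without both, and without both shallow libraries it was 0.837 (permutation, adjusted p = 0.0418). With the mean log2 level of 20 terminal differentiation genes KATNAL1 had r = -0.603 (permutation p = 0.0834, adjusted 0.143) and rho = -0.489 (permutation p = 0.0643, adjusted 0.139), and r was -0.139 without 5549. Tumour 5549 was thus high in KATNAL1 together with a proliferation score of 9.33, against a KO mean of 8.10 ± 0.472 (SD, n = 11). Its differentiation score was 8.94, against a KO mean of 11.4 ± 0.948 (SD, n = 11). Both KO means and SDs include 5549 itself. KATNBL1 had r = -0.429 (permutation p = 0.0547, adjusted 0.143) and rho = -0.581 (permutation p = 0.00902, adjusted 0.0650) with the proliferation score. Without 5533 that r was -0.606 (permutation, adjusted p = 0.0449). The third score was that of the 13 of 15 fibroblast and matrix genes that passed the filter. The other 6 relations with the scores had r between -0.591 and 0.419, with no adjusted p under 0.143 by permutation. The lowest of these, KATNBL1 with the fibroblast and matrix score, was -0.192 without 5533.

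The genes whose line-centred pattern was most like each member are given as a description, by Pearson's r over the 22 tumours without 5533 and among 10798 protein-coding genes, which share the libraries and their depth. For KATNAL1 they were NOP58 (r = 0.869), TMEM209 (0.854), CAV2 (0.849), IMMT (0.845) and CAV1 (0.838). NOP58 encodes a core protein of small nucleolar ribonucleoproteins, IMMT a scaffold of mitochondrial cristae, and CAV1 and CAV2 are the neighbouring caveolin genes on chromosome 7. For KATNA1 they were MED19 (r = 0.856), RPP38 (0.793), GINM1 (0.789), ATAD3C (0.780) and MED10 (0.774). MED19 and MED10 encode subunits of the Mediator complex, and GINM1 is the convergent neighbour of KATNA1, whose annotated end lies 3124 bases from that of KATNA1. For KATNBL1 they were KLHDC2 (r = 0.858), ANKRD49 (0.843), ZNF706 (0.821), LDAF1 (0.820) and SMIM19 (0.812). No gene stood in more than 1 of these lists. With 5533 included r was 0.198 for NOP58 and 0.492 for KLHDC2, and it was at least 0.704 for the other 13 genes. Without 5549 as well as 5533, r of the 5 genes with KATNAL1 was 0.688 to 0.765.

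Other microtubule genes, from lists of katanin relatives, partners and regulators, held no gene that passed the KO minus WT test, which called 0.00623% of all genes. At an unadjusted p under 0.05 the same test had 948 genes higher and 1065 lower in KO tumours of the 16063. The counts of each list at that threshold are to be set against these. They are a description, because the lists were chosen with earlier results of these data known. Among the related AAA ATPases, 5 of 6 genes were tested and none passed or had an unadjusted p under 0.05 in limma. SPAST, the severing enzyme spastin, was at 357 ± 77.2 in WT (SD, n = 12) and 359 ± 38.7 in KO tumours (SD, n = 11), a log2 difference of 0.03 (SE 0.10). FIGN and FIGNL1, which encode fidgetin and a relative of it, differed by 0.24 (SE 0.34) and 0.12 (SE 0.13). VPS4A and VPS4B, the enzymes that take apart ESCRT-III filaments, differed by 0.01 (SE 0.06) and 0.03 (SE 0.11). FIGNL2 did not pass the filter. All 5 differences were positive with a median of 0.03, and the median over all genes tested was 0.03. Without 5533, by group means, 3 were positive with a median of 0.05, and the median over all genes was 0.00.

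The katanin partners, proteins that bind, target or restrain katanin, had 7 genes tested, 5 with a positive difference and a median of 0.14, or 4 and 0.02 without 5533. PAFAH1B1, which encodes the dynein regulator LIS1, was at 3062 ± 553 in WT (SD, n = 12) and 3250 ± 277 in KO tumours (SD, n = 11), a log2 difference of 0.11 (SE 0.11). NDEL1, a partner of LIS1, was at 2280 ± 472 (SD, n = 12) and 2097 ± 396 (SD, n = 11), a log2 difference of -0.11 (SE 0.14). The genes of katanin turnover had 4 of 5 with a positive difference and a median of 0.18, or 4 and 0.115 without 5533. DDB1, a ubiquitin ligase adaptor, had a log2 difference of 0.18 (SE 0.10), and CUL3, a ubiquitin ligase scaffold, one of -0.03 (SE 0.10). Of these 12 genes limma called none, and 1 partner was higher at an unadjusted p under 0.05.

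Among the microtubule end and lattice regulators, 15 of 16 genes had a positive difference, with a median of 0.21 against 0.03 over all genes, of which 8705 of 16063 were positive. MAP4, a microtubule-stabilising protein, was at 6527 ± 1640 in WT (SD, n = 12) and 7594 ± 722 in KO tumours (SD, n = 11), a log2 difference of 0.27 (SE 0.15). CLIP1, a plus-end binding protein, had a log2 difference of 0.14 (SE 0.12). Limma called 0 of the 16, and 3 were higher at an unadjusted p under 0.05. The list's mean log2 level was 7.46 in 5533 against 8.60 ± 0.370 over the WT tumours (SD, n = 12). Without 5533, by group means, 13 of the 16 were positive with a median of 0.12, where all genes had a median of 0.00.

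The tubulin modifying enzymes, which add or remove the marks on tubulin that severing enzymes read, had 12 of 20 genes tested, with a median difference of 0.07, or 0.00331 without 5533. SIRT2, a tubulin deacetylase, had a log2 difference of -0.13 (SE 0.05), and AGBL5, a tubulin deglutamylase, one of -0.08 (SE 0.07). The tubulins, whose close copies make single values uncertain, had 13 genes tested with a median of 0.05, or 0.03 without 5533. TUBB and TUBA4A had log2 differences of 0.21 (SE 0.11) and 0.02 (SE 0.13). Limma called 0 genes of either list, with 1 modifying enzyme and 2 tubulins lower at an unadjusted p under 0.05. Among the WT lines these 6 microtubule lists held 9 of 58 tested genes at an unadjusted p under 0.05, where 1652 of all 16063 genes were. Among the KO lines they held 1 of the 58, where 356 of all 16063 genes were. Limma called none of the 58 among the lines of either genotype.

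**Figure D4:**
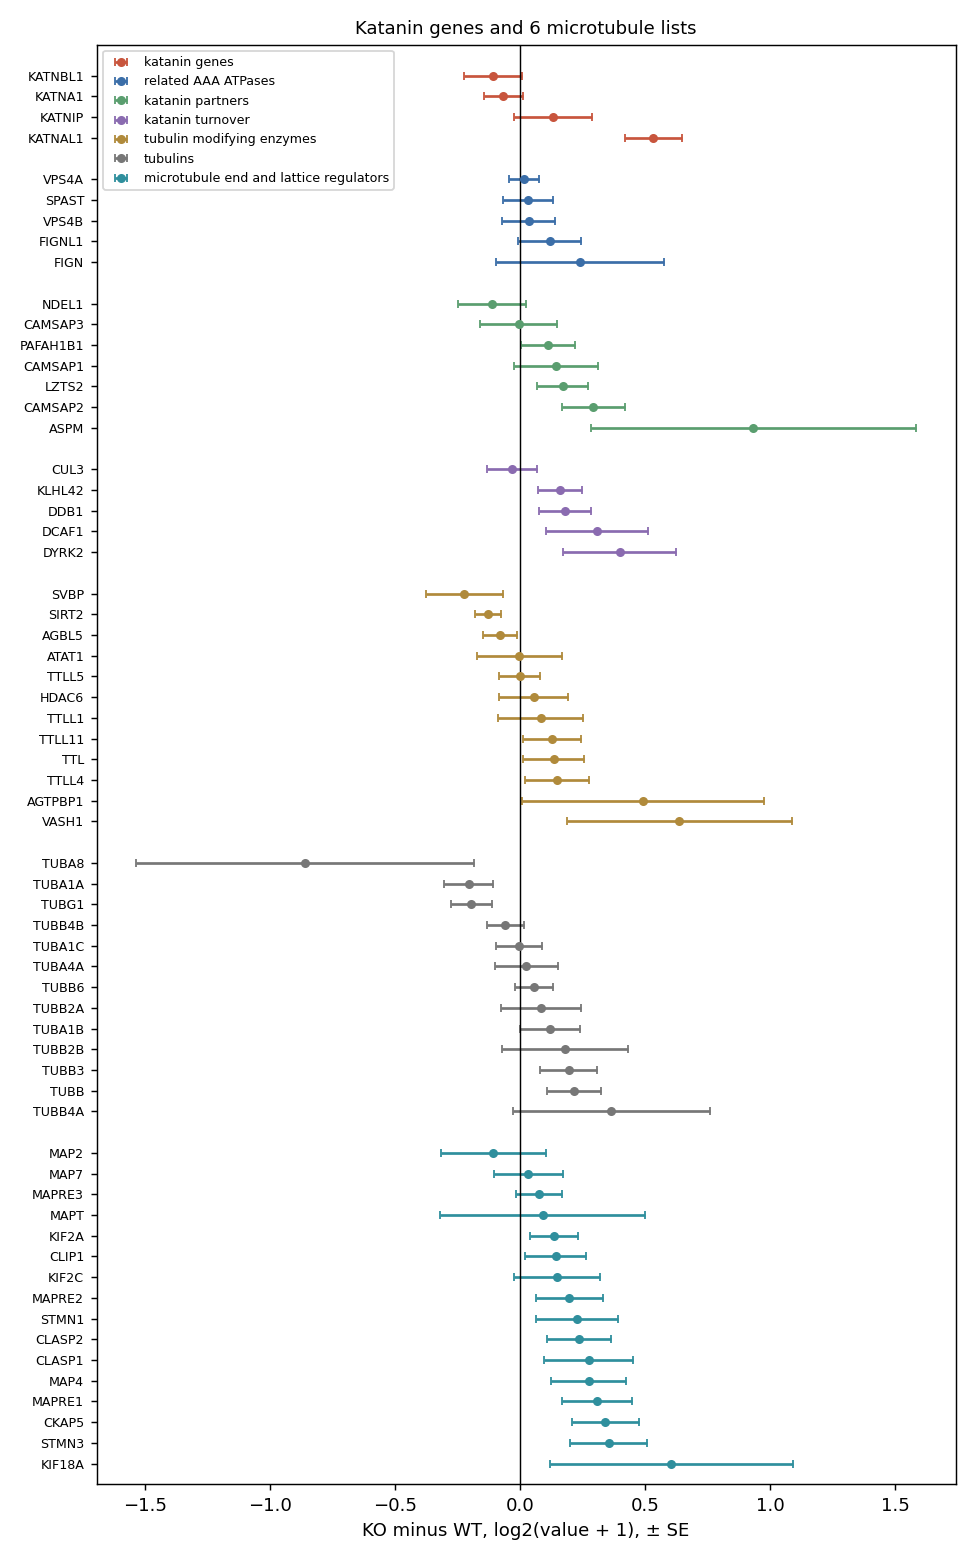
Difference KO minus WT on the log2(value + 1) scale (horizontal axis; points with bars of 1 SE) for the katanin genes and the tested genes of 6 microtubule lists, grouped and coloured by list and ordered by size within each. KATNAL1 at 0.53 has the highest difference of the katanin group, and 15 of 16 end and lattice regulators lie above 0.

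Markers of differentiation and of other cells are given beside the katanin values, and their part in those values was not tested. Of the 20 terminal differentiation genes 18 had a negative difference, with a median of -1.14. Limma called 0 of them, with 15 lower at an unadjusted p under 0.05, where 1065 of all 16063 genes were. The list was chosen with earlier results of these data known, so these counts are a description. The terminal differentiation score was 12.4 ± 0.585 in WT (SD, n = 12) and 11.4 ± 0.948 in KO tumours (SD, n = 11). The proliferation score was 7.95 ± 0.308 (SD, n = 12) and 8.10 ± 0.472 (SD, n = 11). Of the 15 fibroblast and matrix markers 13 were tested and 12 had a positive difference, where 8705 of all 16063 genes had one. Their median difference was 0.40, or 0.26 without 5533, against 0.03 and 0.00 over all genes. The summed level of the 15 ranged from 8410, in 5533, to 29400 in WT and from 11200 to 41300 in KO tumours. Endothelial markers summed to 114 to 274 in WT, the highest in 5533, and 92.3 to 248 in KO tumours. Of these, PECAM1, CDH5, FLT1, TEK, EMCN, CLDN5 and ENG were at 0 in some tumours. Myeloid markers summed to 475 to 657 and 420 to 654, with ITGAM, AIF1 and PTPRC at 0 in some tumours. Skeletal muscle markers summed to 48.3 to 12400 and 219 to 12400. The tumours grew in mice and the build is human, so mouse reads of conserved sequence may be counted in any of these genes, the katanin genes included.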

How the data were processed

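Poly(A) RNA-seq of 23 tumours was analysed. The deposited table holds 1 normalized signal per gene and tumour, a read abundance scaled by the authors. Per the submitters' processing notes, the tools were STAR and DESeq2 and the build hg38; versions, strand and the handling of mouse reads are not given in the sources used here. Per the labels' protocols, libraries were directional and made from 500 ng of RNA. In each library 69.2% to 82.5% of the low values, up to 20 times the smallest step, fell within 0.02 of a whole multiple, so whole reads could not be recovered and no count test was run; dividing by the step gave the estimated reads. The closest pair of libraries differed by a chi-square of 7.72 per degree of freedom, so none was taken as a repeat.

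Genes with a mean of at least 10 were tested as log2(value + 1), where fold changes of low genes are understated, with limma 3.58.1 (R 4.3.3, trended prior, Benjamini-Hochberg at 0.05). KO and WT were compared with the line as a random block (consensus correlation 0.00767). At so small a correlation, tumours of a line counted almost as independent. Lines of a genotype were compared by F tests in a fit of 6 line means. Relations used 100000 permutations within lines, two-sided. Tests were checked on simulated data. Coordinates are those of the table, exon lengths of GENCODE 29, and 26606 of 27589 identifiers matched. Members and lists were chosen with earlier results of these data known. Named genes are the members, all katanin relatives and AAA ATPases, the 2 genes of highest mean in each other microtubule list, and the 5 genes most like each member in pattern; some genes are not reported here. Markers are keratinocyte, fibroblast and matrix, endothelial, myeloid and skeletal muscle genes. Alternatives changed the pseudocount, scaling, filter, block, weights, lines and tumours.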

Additional observations from a re-analysis of the deposited data

Results flagged for a closer look

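In 25 sets of 4 tumours (5 katanin genes in the 5 lines with 4 tumours) the highest or lowest tumour was compared with the rest of its line, and 4 stood apart by Dixon's criterion at 95%, which chance meets in about 1 set in 20. KATNA1 was at 411.1 in 5533 of WT line 6C9, where the next tumour was at 280.0. KATNBL1 was at 584.7 in the same tumour, where the next was at 300.0. This was the shallowest library, with 45 and 64 reads behind those values. KATNAL1 was at 184.1 in 5549 of KO line 1G10, where the next tumour was at 103.5, and it rested there on 236 reads in a library of 16354578. KATNBL1 was at 369.6 in 5534 of WT line 6C10, where the other tumours lay between 324.9 and 329.3.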

How the results depend on the processing

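The KO minus WT log2 difference of KATNAL1 was positive under all 36 alternatives, at 0.42 to 0.62. The members were chosen with this contrast known in these same tumours, so that constancy is a description only. The difference of KATNA1 stayed between -0.09 and -0.02 and that of KATNBL1 between -0.17 and -0.03, and that of KATNIP ran from -0.04 to 0.24. The count of genes called over the whole table was less stable. It was 0 with libraries rescaled to the same total, without both shallow libraries, and without line 5B2, 6C10, 2B8 or 1G10, and 0 to 2 on leaving out each tumour, with 2 without 5533. Among WT lines it was 0 to 2 on leaving out each tumour (2 without 5530, 0 without 5534). The alternative without 5533 for the gene lists was chosen after seeing the data. With library quality weights the counts were 738 for KO minus WT, 1919 among WT lines and 6459 among KO lines, where KATNBL1 then had adjusted p = 0.004785 in limma; the weights of the fit of line means did not converge, and gave 5539 of line 2F7 a weight of 67.2 against at most 3.11 elsewhere. With libraries rescaled to the same total, r of KATNA1 became 0.00997 with the proliferation score and -0.0622 with the differentiation score. Without both shallow libraries r with proliferation was 0.837 for KATNAL1 (permutation, adjusted p = 0.0418) and -0.623 for KATNBL1 (adjusted p = 0.0298), and on leaving out each tumour it ran from 0.137 to 0.818 and from -0.606 to -0.352. No paired analysis was possible because every tumour has its own specimen number. KATNAL1 rested on 33 and 8 reads in the shallow libraries, which limits its precision there. Where a value changed, the cause was not tested.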
